A study of Homo sapiens with 8 samples.

Results

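The effect of DPN on the transcriptome of HepG2 cells was described across all genes with enough reads, by comparing 2 DPN libraries with 2 control libraries. These are 4 of the 8 RNA-Seq libraries of the series, which also holds 2 libraries each for E2 and PPT. HepG2 is a human hepatocellular carcinoma cell line. Cells of all groups were grown in phenol red-free DMEM with charcoal-stripped serum, starved in 0.1% FBS for 16 h and then treated for 48 h. Control cells received the vehicle DMSO, and the other groups received 1 µM of 17β E2, PPT or DPN. The library labels do not say that the replicates of a group were separate cultures, so a p-value here reflects the spread of these samples alone, and that spread may be technical. Of the 26235 genes in the tables, 15460 had enough counts to be tested.

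DPN (diarylpropionitrile) is a nonsteroidal agonist with preference for estrogen receptor β (ERβ), the product of ESR2. PPT is a nonsteroidal agonist selective for ERα, the product of ESR1, and E2 is the natural steroid that activates both. These receptors are transcription factors that bind DNA after taking up ligand, and they can also act through other factors bound to promoters. In liver cells estrogens are known for effects on plasma proteins, lipid metabolism and growth.

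Receptor transcripts were scarce in these cells. ESR1 (GeneID 2099) had 0 counts in all 8 libraries, which allows up to 3 counts per library. ESR2 (GeneID 2100) had 8 and 6 counts in the control libraries, 3 and 0 with DPN, 4 and 7 with PPT and 1 and 1 with E2, too few to be tested. GPER1, the membrane estrogen receptor (GeneID 2852), stood at 16.1 and 16.2 CPM (counts scaled by library size and TMM factor) in control cells and 10.4 and 12.3 with DPN. It fell by 0.51 on the log2 scale (standard error 0.13, adjusted p = 0.00148 by edgeR's quasi-likelihood test with Benjamini-Hochberg adjustment, as for every adjusted p here). Of 16 tested genes known as estrogen targets in breast cells, 5 rose and 6 fell at an adjusted p under 0.05, where 24.4% of all tested genes rose and 24.1% fell. With GPER1 in the list, the count of rises was 3 without control replicate 1 or DPN replicate 1. AGR2, a disulfide isomerase of secretory cells, rose from 9.55 and 7.62 CPM to 48.0 and 42.0, whereas PDZK1, a scaffold of membrane transporters, fell from 28.1 and 33.3 to 7.34 and 9.86. GREB1, a cofactor of estrogen receptors, fell from 112 and 114 to 65.1 and 68.1 CPM. The estrogen response element (ERE, searched as GGTCA and TGACC set 3 bases apart) was found in 3 of 16928 promoter windows of tested genes (300 bases each, both strands). Imperfect and more distant sites were not searched, so this count cannot show whether estrogen receptors acted.

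Hepatocyte markers were abundant: ALB, the gene of serum albumin, stood at 10700 and 10110 CPM in control cells and 9939 and 9407 with DPN, and the test found no difference (log2 fold change -0.11, adjusted p = 0.192). Of 10 hepatocyte and hepatoma markers, 9 fell with DPN. Of markers of other cells, 2 of 8 for fibroblasts and stellate cells, 4 of 6 for endothelium, 2 of 7 for leukocytes and 3 of 5 for cholangiocytes had enough counts to be tested. DCN, THY1, MARCO, MS4A1 and CFTR had 0 counts in the control and DPN libraries and PTPRC at most 5. Of the tested ones, 1 endothelial, 2 leukocyte and 1 cholangiocyte marker rose and 1 stellate, 1 endothelial and 1 cholangiocyte marker fell: LYVE1 of sinusoidal endothelium had 20 and 7 counts in control and 77 and 120 in DPN libraries, CD14 and CD68 of monocytes and macrophages rose by 0.91 and 0.55, KRT19 rose by 0.34, and ACTA2, PECAM1 and SOX9 fell by 1.36, 0.73 and 0.50 on the log2 scale. The part of other cells in the results was not tested. The control and DPN libraries held 28135990 to 29670814 counts each, and all 8 libraries 25103160 to 29670814. Replicates correlated at 0.991 (control) and 0.989 (DPN) across genes, which are not independent, against 0.964 to 0.966 between these groups.

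By the fold and significance limits of the study's methods (log2 beyond 1.5 either way, adjusted p below 0.01), 297 genes were called higher (1.92% of the tested genes) and 313 lower (2.02%). Without a fold minimum, at an adjusted p under 0.05, 3775 genes rose (24.4%) and 3727 fell (24.1%). TMM scaling centres the fold changes, and upper-quartile scaling gave 3500 and 3990. Throughout, "rose" and "fell" mean this wider test, and "called" means the stricter one. The typical change was small, with a median absolute log2 value of 0.374 across the tested genes. Among the called genes, 258 of the rises and 264 of the falls were protein-coding genes. All 610 called genes had both DPN libraries on one side of both controls, as had 74.5% of all tested genes.

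**Figure D1:**
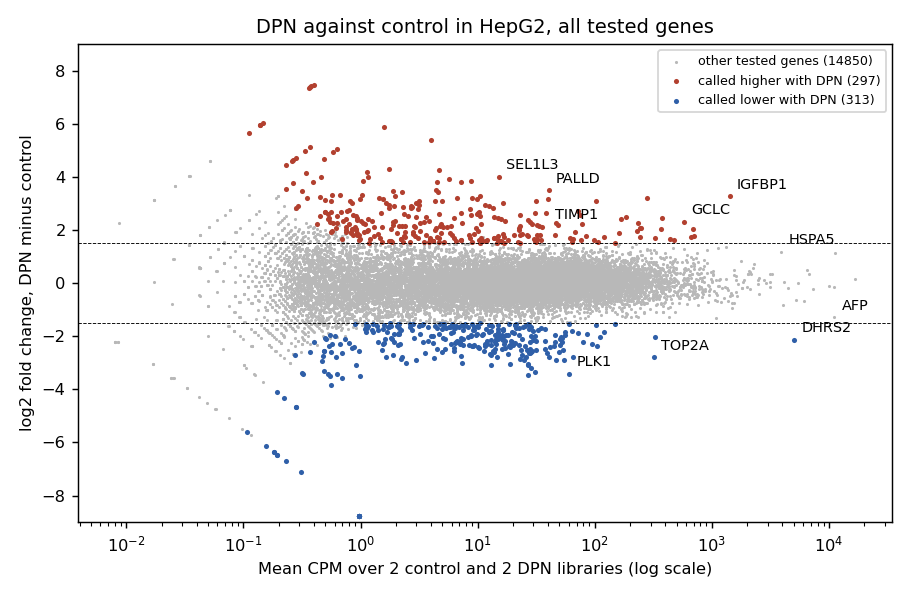
Log2 fold change of DPN against control (vertical axis) by mean CPM over the 2 control and 2 DPN libraries (horizontal axis, log scale) for each tested gene. Red and blue points are the 297 genes called higher and the 313 called lower, and dashed lines mark the fold threshold of 1.5; called genes lie at all levels, and the points farthest from 0 are genes of few counts.

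The largest rises among genes with a mean of at least 5 CPM included genes of metabolism, the cytoskeleton and signalling. SEL1L3 (GeneID 23231) went from 1.71 and 1.86 CPM to 29.1 and 28.4, and AMPD3, an AMP deaminase, from 0.710 and 0.712 to 12.1 and 9.41. PALLD, the actin-bundling protein palladin, went from 6.48 and 6.64 to 76.3 and 72.5, higher by 3.502 on the log2 scale (adjusted p = 3.4e-19). In each of these genes both DPN libraries lay above both controls, which the choice of the largest rises required. The groups did not overlap in 74.5% of all tested genes. AKAP12, an anchor of protein kinase A (GeneID 9590), rose from 53.1 and 55.5 to 497 and 506 CPM. IGFBP1, a secreted carrier of insulin-like growth factors (GeneID 3484, chromosome 7), had the highest CPM of all called rises, with 269 and 264 in control cells and 2580 and 2584 in treated cells (higher by 3.27 on the log2 scale, adjusted p = 2.76e-22). Other genes of high counts that were called higher were SPP1 (the matrix protein osteopontin), JAG1 (a Notch ligand), ASPH (an aspartyl hydroxylase) and ITGA2. At the other end, DHRS2, a short-chain dehydrogenase (GeneID 10202), fell from 8148 and 8289 to 1819 and 1945 CPM (log2 fold change -2.13, standard error 0.07, adjusted p = 3.00e-19). It was the called fall with the highest CPM, and the next ones were STMN1, a destabiliser of microtubules, and TOP2A, the topoisomerase that untangles sister chromosomes.

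The machinery of cell division was lower throughout with DPN. Of 80 tested genes of mitosis and the spindle, 80 fell and 65 were called lower, where 2.02% of all tested genes were, with a median log2 fold change of -2.24 against -0.005 over all tested genes. The 15 largest falls among genes with at least 5 CPM were led by KIF20A, PLK1, MYBL2 and NDC80. PLK1, the kinase that drives entry into and passage through mitosis (GeneID 5347, chromosome 16), went from 111 and 111 CPM to 10.1 and 10.8 (log2 fold change -3.41, standard error 0.10, adjusted p = 1.15e-19). CCNB1, the mitotic cyclin B1, went from 160 and 154 to 33.1 and 30.2, and CDC20, which activates the anaphase-promoting complex, from 38.1 and 43.4 to 5.99 and 5.33. Each of these had both DPN libraries far below both controls. The largest falls were chosen among genes whose groups did not overlap, as held for 74.5% of all tested genes.

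Motors and spindle proteins (24 of 24 fell, 22 called), kinetochore proteins (23 of 23 fell, 14 called) and mitotic kinases (9 of 9 fell, 8 called) moved alike. KIF20A, a kinesin of cytokinesis, had the largest of these falls, from 49.0 and 50.1 CPM to 4.23 and 4.67. NDC80, which attaches kinetochores to microtubules, went from 50.7 and 53.3 to 4.85 and 6.36 CPM. TOP2A went from 574 and 547 to 81.9 and 81.5, and MKI67, the proliferation antigen Ki-67, from 92.0 and 99.9 to 12.2 and 13.7. MYBL2, a transcription factor that switches on late cell cycle genes, fell from 52.4 and 59.9 to 5.58 and 5.43 CPM. The median fall was larger for the chromosomal passenger complex (-2.78), which includes AURKB, than for kinetochore proteins (-1.98).

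Promoters of these genes are known for the CHR, the motif TTTGAA, at which repressor and activator complexes of the cell cycle bind. Of the 80 genes, 70 had a promoter window in RefSeq (250 bases before to 50 after the start, GRCh38.p14), and 61.2% of their 85 windows held TTTGAA on either strand, and 10.9% of the 16928 windows found for tested genes did. CCAAT, the box bound by NF-Y, was in 67.1% of these windows and in 34.9% of all. Windows were given for 76.5% of all tested genes, under 80%, so shares of all windows describe those windows alone and no difference from all tested genes is drawn from them. The motif is shown in capitals in the 4 called genes of the list with the largest falls among those whose window holds it before the start, on the strand of the gene:
PLK1 (chr16:23678830-23678888, plus strand): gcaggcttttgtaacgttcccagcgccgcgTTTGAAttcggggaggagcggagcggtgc
CDCA8 (chr1:37692463-37692515, plus strand): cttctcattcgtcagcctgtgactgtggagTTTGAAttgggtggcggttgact
MKI67 (chr10:128126424-128126482, minus strand): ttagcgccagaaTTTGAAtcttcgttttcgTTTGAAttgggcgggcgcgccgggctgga
CDC20 (chr1:43358886-43358951, plus strand): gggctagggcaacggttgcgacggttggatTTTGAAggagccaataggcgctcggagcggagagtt
In PLK1 and MKI67 the copy nearest to the start ends 24 bases before it, in CDCA8 18 bases and in CDC20 60 bases. A match describes the letters only and was not tested as a binding site.

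DNA replication genes fell less. Of 61 tested members, 55 fell and none rose, with a median of -1.30. Of these 61, 23 were called lower, where 2.02% of all tested genes were. Subunits and loaders of the replicative helicase were prominent: 18 of 19 fell, and MCM2 went from 79.1 and 85.8 CPM to 18.9 and 19.6. RRM2, the regulated subunit of the enzyme that makes deoxyribonucleotides, went from 128 and 132 to 28.9 and 26.9 (log2 fold change -2.22, adjusted p = 7.49e-17). UHRF1, which maintains DNA methylation at replication forks, fell from 46.6 and 51.4 to 8.24 and 8.42 CPM. PCNA, the sliding clamp, fell by 1.26 on the log2 scale and so missed the fold threshold. In promoter windows of these genes (51 of 61 genes had one) TTTGAA was found in 5.80% of 69 windows and CCAAT in 55.1%.

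Of 37 genes of homologous recombination and the Fanconi pathway, 23 fell and 1 rose (0 to 3 without 1 library), with a median of -0.83 and 8 called lower. Over all tested genes, 2.02% were called lower. RAD54L, a motor protein of strand exchange, went from 22.5 and 20.7 CPM to 3.949 and 4.603, and FANCD2 from 25.4 and 26.1 to 7.62 and 7.42. BRCA1 and BRCA2 fell by 1.22 and 1.35 on the log2 scale. Base excision repair had 5 of 19 genes higher, near the share of all tested genes, and 8 lower, and with each of the 8 libraries left out in turn the counts ran from 2 to 5 rises and 5 to 8 falls. NEIL3, a glycosylase of dividing cells, fell from 13.6 and 9.76 to 2.84 and 2.78 CPM, while OGG1, which removes oxidised guanine, rose from 12.2 and 13.4 to 20.3 and 19.6. Of 23 nucleotide excision repair genes, 5 rose and 6 fell, near the shares of all tested genes, and 3 rose without control replicate 1. DDB2, which finds ultraviolet damage and is a p53 target, was the 1 called, at 21.5 and 18.2 CPM in control cells and 6.998 and 6.08 with DPN.

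**Figure D2:**
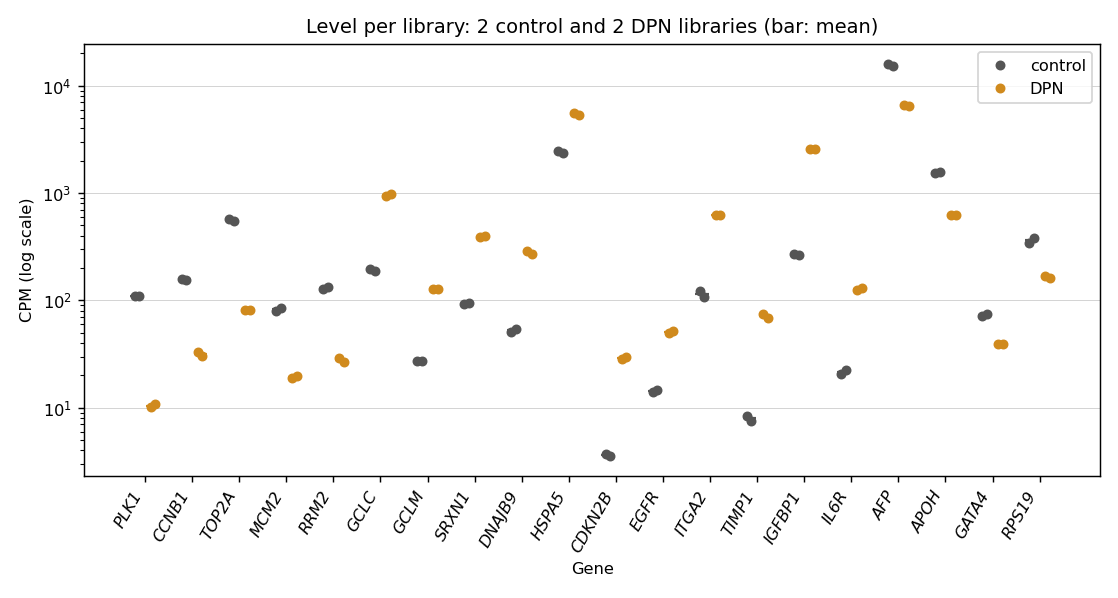
CPM per library (vertical axis, log scale) of 20 genes in the 2 control and the 2 DPN libraries, with a bar at each mean. The groups do not overlap in any gene shown, nor in 74.5% of all tested genes. Cell cycle genes at the left, such as PLK1 at 111 and 111 against 10.1 and 10.8 CPM, are lower with DPN. Glutathione genes such as GCLC are higher.

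Genes of glutathione synthesis and thiol reduction rose. Many of them are targets of NRF2, a transcription factor that KEAP1 holds in check and that binds antioxidant response elements. Of 42 tested genes of this list, 26 rose and 7 fell, with a median log2 fold change of 0.46. Of these 42, 8 were called higher, where 1.92% of all tested genes were. GCLC and GCLM, the subunits of the rate-limiting enzyme of glutathione synthesis, went from 197 and 190 to 943 and 978 CPM (log2 fold change 2.31, standard error 0.07, adjusted p = 6.36e-20) and from 27.0 and 27.3 to 126 and 128 CPM. The detoxification group had 7 of 8 members higher. AKR1B10, an aldo-keto reductase, went from 79.3 and 84.5 to 381 and 395 CPM, and AKR1C1 and AKR1C2, near copies that share reads, rose by 2.04 and 2.07.

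In the thioredoxin system SRXN1, which repairs oxidised peroxiredoxins, rose from 93.1 and 93.9 to 388 and 395 CPM. TXNRD1, thioredoxin reductase, rose from 312 and 301 to 1034 and 1027. ABCC3, an exporter of conjugates, was also called, and ABCC2, SQSTM1 and NQO1 rose by 1.31, 1.31 and 0.79. Not every known NRF2 target moved. HMOX1, heme oxygenase, stood at 19.7 and 20.4 CPM in control cells and 17.2 and 21.4 with DPN, and the groups overlapped (log2 fold change -0.06, adjusted p = 0.724). The transcript of NRF2 itself, NFE2L2, was at 290 and 275 CPM in control cells and 292 and 276 with DPN, and KEAP1 fell by 0.24 (adjusted p = 0.0295).

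Stretches of the promoters of GCLM and TXNRD1, called members that hold the element TGACNNNGC before their start, are shown with the element in capitals, read on the strand of the gene:
GCLM (chr1:93909431-93909494, minus strand): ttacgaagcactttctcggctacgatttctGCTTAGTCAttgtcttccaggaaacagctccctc
TXNRD1 (chr12:104215650-104215718, plus strand): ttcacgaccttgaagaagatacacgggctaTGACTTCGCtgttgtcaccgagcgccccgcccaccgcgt
In GCLM the element lies on the strand opposite to the gene. The element was in 14.5% of all windows. Of the 42 genes, 32 had a window, under 80%, so no share over the list is given.

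Chaperones and quality control of the endoplasmic reticulum rose as a group. The unfolded protein response restores folding capacity through the sensors IRE1, PERK and ATF6, which act on chaperones, disulfide formation and degradation. Of 34 tested genes of this list, 27 rose and 1 fell, with a median of 0.81. Of these 34, 5 were called higher, where 1.92% of all tested genes were. DNAJB9, a co-chaperone of BiP, went from 50.6 and 54.3 CPM to 291 and 273 (log2 fold change 2.43, standard error 0.07, adjusted p = 8.99e-20). HSPA5, BiP itself, went from 2447 and 2343 to 5554 and 5320 CPM, a log2 fold change of 1.18. All 7 tested genes of degradation rose, among them SEL1L, an adaptor of the ubiquitin ligase of this compartment, which went from 150 and 146 to 346 and 336 CPM. CCPG1, a receptor for autophagy of the endoplasmic reticulum, rose from 71.3 and 66.3 to 254 and 250. XBP1, counted over all its splice forms, stood at 439 and 423 CPM in control cells and 425 and 434 with DPN.

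Promoter windows were given for 31 of these 34 genes. CCACG, a core of the elements that XBP1 and ATF6 bind, was in 75.7% of 37 windows and in 46.9% of all windows, and CCAAT in 81.1% and 34.9%. Lists that fell held these motifs too. CCACG was in 63.8% of 69 replication windows and 49.4% of 85 mitotic windows, and CCAAT in 55.1% and 67.1%. Neither motif is therefore particular to the genes that rose. Called members that hold both follow, with CCAAT and CCACG, on either strand, in capitals:
DNAJB9 (chr7:108569797-108569861, plus strand): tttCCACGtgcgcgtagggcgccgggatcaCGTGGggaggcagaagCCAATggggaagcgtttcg
FICD (chr12:108515107-108515171, plus strand): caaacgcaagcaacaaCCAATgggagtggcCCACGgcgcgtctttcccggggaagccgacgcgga
FICD modifies BiP by AMPylation, and its level went from 0.806 and 1.32 to 5.58 and 3.74 CPM.

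The amino-acid arm of the stress response did not rise with the chaperones. Of 37 tested genes that ATF4 is known to regulate or that belong to its response, 6 rose and 20 fell, with a median of -0.21. ATF4 fell from 321 and 342 CPM to 239 and 240, and DDIT3, the stress factor CHOP, fell by 0.44. PHGDH, which opens serine synthesis, fell from 243 and 267 to 102 and 110 CPM. ASNS, asparagine synthetase, stood at 242 and 242 in control cells and 239 and 230 with DPN (adjusted p = 0.621). ALDH1L2, a mitochondrial folate enzyme, rose from 16.8 and 14.4 to 49.8 and 47.6 CPM and was the 1 called member. Over all tested genes 1.92% were called higher, so 1 of 37 is near that share.

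Inhibitors of cyclin-dependent kinases moved in both directions. CDKN2B, the inhibitor p15 of CDK4 and CDK6 (GeneID 1030), rose from 3.68 and 3.52 to 28.4 and 29.9 CPM (log2 fold change 3.01, standard error 0.14, adjusted p = 5.68e-16). CDKN1A, the inhibitor p21, rose by 0.66, while CDKN2C, the inhibitor p18, fell from 17.4 and 19.0 to 5.65 and 5.26 CPM. CCND1, cyclin D1, fell from 114 and 117 to 82.5 and 84.5. Of 32 tested p53 targets, 8 rose, near the share of all tested genes (24.4%), and 14 fell, with a median of -0.14. SFN, the arrest protein 14-3-3 sigma, rose from 2.87 and 2.95 to 21.7 and 22.3 CPM. BBC3, the death protein PUMA, fell from 17.6 and 18.7 to 7.52 and 6.63.

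Among regulators of apoptosis, transcripts of survival genes were mostly higher and those of killer genes more often lower. These levels do not measure cell death. From assays of the cells themselves, the paper reports more apoptosis and lower cell numbers with DPN. Of 9 survival genes in this list, 6 rose and none fell (median 0.84), and of 10 killer genes, 1 rose and 5 fell (median -0.29). BIRC5, the apoptosis inhibitor survivin, was counted with the mitotic genes and not here. It fell from 115 and 112 to 16.66 and 16.45 CPM. MCL1 rose from 626 and 594 to 1121 and 1107 CPM and XIAP, a caspase inhibitor, from 37.5 and 41.2 to 79.7 and 73.0. BAX, which opens the mitochondrial outer membrane, fell from 69.1 and 77.7 to 37.3 and 37.5 CPM. Caspases and their partners went up more often than down, with 5 of 10 higher and 2 lower. TNFSF10, the death ligand TRAIL, was the 1 called member of the 38 regulators, at 6.77 and 7.66 CPM in control cells and 24.2 and 27.2 with DPN (log2 fold change 1.83, adjusted p = 7.79e-12). That 1 call of 38 is near the share of all tested genes called higher (1.92%).

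EGFR and 4 of 6 tested ligands of its family rose with DPN, while ERBB2 and ERBB3 fell. EGFR (GeneID 1956) rose from 13.9 and 14.7 to 49.5 and 51.4 CPM, and its ligand HBEGF from 10.2 and 9.96 to 34.6 and 36.5. The ligands TGFA and AREG rose by 1.19 and 1.06. ERBB2 and ERBB3 fell by 0.52 and 0.29, and the ligands EREG and EPGN did not pass (log2 fold changes -1.11 and -0.56). In all, 7 of 11 tested members rose and 2 fell. Of 36 genes of ERK feedback and early response, 11 rose and 11 fell, near the shares of all tested genes, and 7 rose without control replicate 1. DUSP5, a phosphatase that switches off ERK in the nucleus, rose from 20.3 and 17.7 to 128 and 123 CPM, and the cytokines LIF and IL11 were called higher, whereas EGR1, MYC and FOS fell by 0.42, 0.48 and 0.54. FGFR2, a fibroblast growth factor receptor, fell from 4.26 and 4.47 to 0.901 and 0.172 CPM.

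Adhesion and actin genes rose. Of 51 tested genes of integrins, focal adhesions and actin, 29 rose and 6 fell, with a median of 0.36. Of these 51, 10 were called higher, where 1.92% of all tested genes were. ITGA2, the collagen-binding integrin subunit alpha 2, rose from 122 and 107 CPM to 630 and 629, and its partner ITGB1 from 566 and 512 to 1292 and 1254. TAGLN, the actin-binding protein transgelin, went from 7.38 and 5.79 to 53.8 and 59.0. ACTG1, cytoplasmic gamma actin, rose by 1.15, while ACTB, cytoplasmic beta actin, stood at 1548 and 1568 CPM in control cells and 1729 and 1645 with DPN (log2 fold change 0.11, adjusted p = 0.126). ACTB did pass, at adjusted p = 0.0388, when edgeR was fitted on these 4 libraries alone. Among YAP targets, CCN1 and ANKRD1 rose by 2.15 and 1.83 and AJUBA fell by 1.25.

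Matrix genes went both ways, with 15 of 37 higher and 10 lower, the falls near the share of all tested genes (24.1%). Inhibitors of proteases rose (4 of 6, and 1 fell), led by TIMP1, which blocks matrix metalloproteases (GeneID 7076), at 8.42 and 7.59 CPM in control cells and 75.4 and 68.5 with DPN. Laminins and collagens had 5 of 9 members lower and none higher. Among keratins, KRT17 rose from 0.355 and 0.576 to 8.70 and 9.03 CPM, and KRT18 and KRT8, the keratins of hepatocytes, fell by 0.53 and 0.29.

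**Figure D3:**
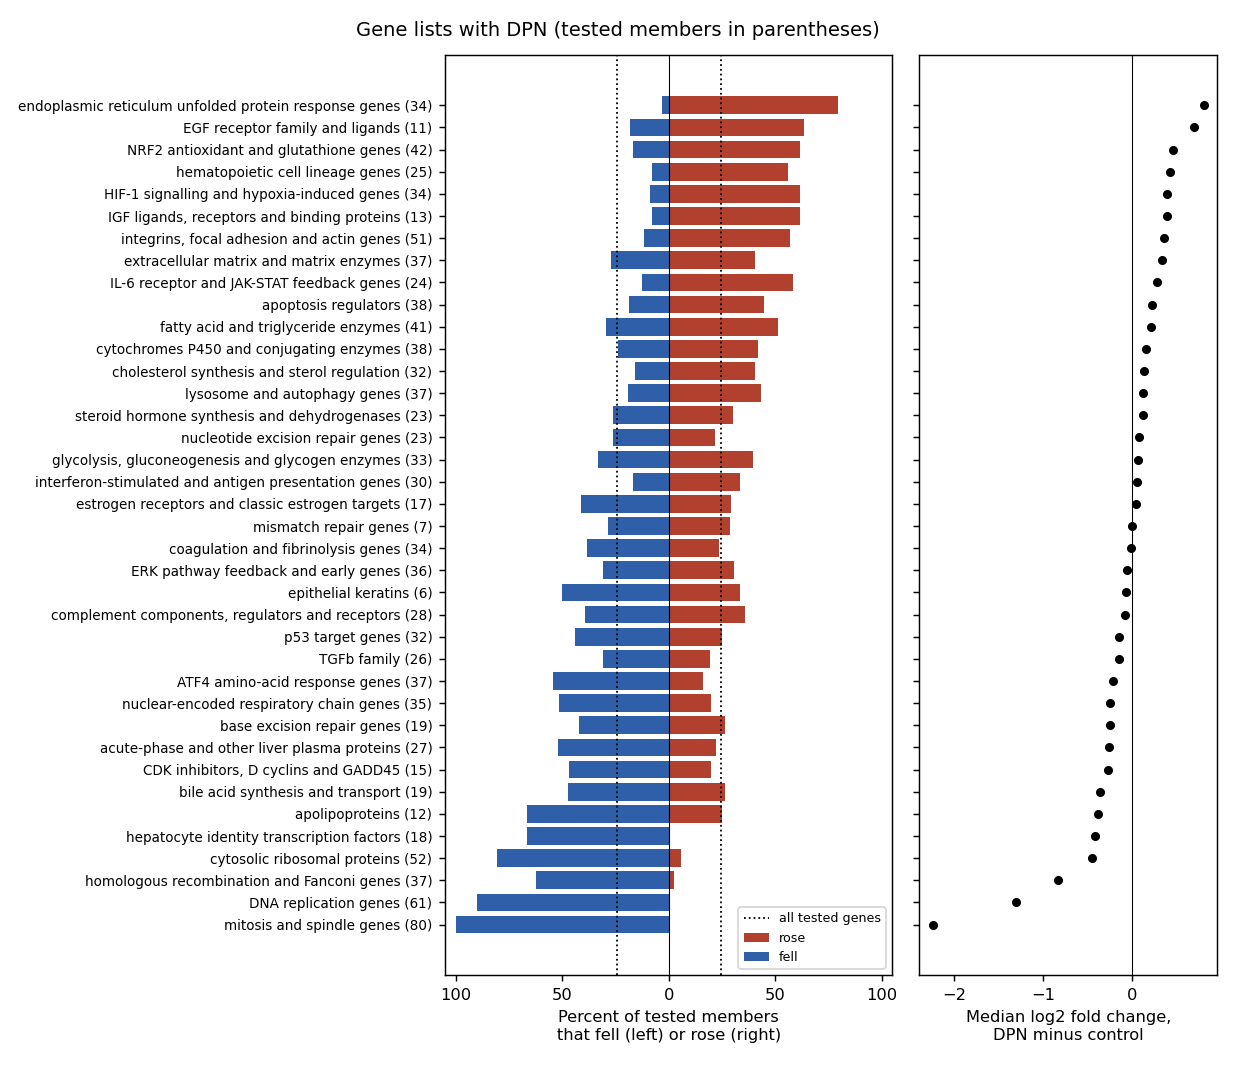
Share of tested members of each of 38 gene lists that rose (right) or fell (left) with DPN, in percent, and the median log2 fold change of the list (right panel), with the number of tested members in parentheses. Dotted lines mark the shares over all tested genes, 24.4% and 24.1%; mitosis, replication and recombination lists lie at the bottom and the unfolded protein response list, at a median of 0.81, at the top.

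Of 7 tested binding proteins of insulin-like growth factors, 3 rose and 1 fell, and IL6R rose. The fall was IGFALS, which forms a complex with them in plasma, at -1.56, and it did not pass when any 1 of the 8 libraries was left out. IGFBP3 went from 2.77 and 2.71 CPM to 17.9 and 16.7, beside the rise of IGFBP1 above, and IGF2, the fetal growth factor, rose by 0.52. IL6R, the receptor for interleukin 6 (GeneID 3570), rose from 20.6 and 22.6 to 125 and 131 CPM (log2 fold change 2.57, standard error 0.08, adjusted p = 5.02e-19). SOCS3, which switches off signalling of this receptor, rose from 0.935 and 1.63 to 6.82 and 5.98, while its relative SOCS1 fell by 1.21. Of 24 tested genes of the IL-6 receptor and its JAK-STAT pathway, 14 rose and 3 fell. Of 34 genes of HIF-1 signalling and its targets, 21 rose and 3 fell, with a median of 0.40. Among the 26 targets alone, 16 rose and 2 fell. Glycolysis enzymes were kept in a separate list and were more often lower: 10 of 18 fell and 4 rose, with a median of -0.21. EGLN3, an oxygen sensor, rose from 4.29 and 3.86 to 17.1 and 14.6 CPM, and HIF1A rose by 0.32. VEGFA, the vascular growth factor, fell from 139 and 144 to 96.5 and 88.7.

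Genes of liver plasma proteins were mostly lower. Of 13 transport and other plasma proteins that are not acute-phase proteins, 8 fell and 1 rose, with a median of -0.68, while acute-phase genes went both ways (5 of 14 rose and 6 fell). AFP, the fetal albumin of liver and hepatoma (GeneID 174), went from 16060 and 15360 CPM to 6590 and 6414, and TTR, the thyroxine carrier transthyretin, from 228 and 253 to 103 and 101. HP, haptoglobin, rose from 149 and 159 to 256 and 273. Of 12 apolipoproteins, 8 fell and 3 rose (1 without control replicate 1 or DPN replicate 1). APOH, a plasma protein that binds phospholipids, went from 1550 and 1580 to 621 and 624 CPM, and APOA1, the main protein of high-density lipoprotein, from 1920 and 2017 to 1045 and 996.

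Of 15 tested procoagulant genes, 7 fell and none rose, and of 2 tested protease-activated receptors, 2 rose. FGB, a chain of fibrinogen, fell from 312 and 328 to 168 and 162 CPM. F2RL1, a receptor activated by trypsin-like proteases, rose from 96.9 and 91.4 to 365 and 365. THBD, thrombomodulin, was counted 20 and 23 times in the DPN libraries and 0 times in the controls. Taking 3 counts over both controls as the floor, it was at least 15-fold higher. Of 9 complement regulators, 5 fell and 3 rose, and 1 of 2 tested complement receptors rose. This was C5AR1, the receptor of the fragment C5a, which went from 0.839 and 1.36 to 5.58 and 6.77 CPM.

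Transcription factors of hepatocyte identity were lower. Of 18 tested, 12 fell and none rose, with a median of -0.42, none of them past the fold threshold. GATA4 fell from 70.9 and 74.3 CPM to 39.5 and 39.02, CEBPA from 85.0 and 83.1 to 54.4 and 55.5, and NR1H4, the bile acid receptor FXR, from 65.0 and 63.2 to 40.0 and 33.2. HNF4A changed least among those that passed, with -0.17 (adjusted p = 0.0306). Of 9 genes of bile acid synthesis, 5 fell and 2 rose. AKR1D1, a reductase of this pathway, fell from 27.0 and 28.5 to 10.2 and 8.69 CPM.

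Cytochromes P450 rose and conjugating enzymes fell. Of 14 tested P450 genes, 9 rose and 1 fell, and of 14 conjugation genes, 1 rose and 8 fell (medians 0.80 and -0.78). CYP24A1, which inactivates vitamin D, went from 2.03 and 1.42 to 14.6 and 17.7 CPM, and CYP1A1, which oxidises aromatic compounds, from 3.77 and 3.39 to 12.1 and 9.72. UGT2B10, a glucuronosyltransferase, fell from 455 and 448 to 223 and 206, and SULT2A1, which sulfates steroids, from 145 and 137 to 72.3 and 75.8. UGT1A1 shares exons with the other UGT1A genes and fell by 1.06.

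Lipid genes divided by step. Of 11 genes of fatty acid synthesis, 9 rose, whereas 8 of 15 triglyceride genes fell. GPAT3, which starts glycerolipid assembly, rose from 21.0 and 21.9 to 178 and 189 CPM (log2 fold change 3.10, adjusted p = 4.46e-20), and DGAT2, which completes triglycerides, fell from 60.8 and 59.95 to 23.1 and 21.9. PPARG, the nuclear receptor of adipocyte differentiation (GeneID 5468), rose from 8.45 and 8.44 to 17.6 and 19.1. Of 20 enzymes of cholesterol synthesis, 8 rose and 3 fell.

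Ribosomal protein genes shared a small fall. Of 52 tested, 42 fell and 3 rose (8 rose when edgeR was fitted on the 4 libraries alone, and 8 without either PPT library, 1 without control replicate 2 and 0 without DPN replicate 1), with a median of -0.45 and none called. RPS19 fell from 342 and 384 to 169 and 161 CPM. Lysosomal and autophagy genes had 16 of 37 members higher and 7 lower, led by DEPP1, a regulator of autophagy, at 9.38 and 11.7 CPM in control cells and 61.2 and 70.8 with DPN, and by the protease CTSB, which rose by 1.36.

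DPN was also compared directly with PPT and E2 at the same dose and time. DPN and PPT both carry phenol rings on a nonsteroidal core, in DPN a short chain with a nitrile and in PPT a pyrazole ring, and E2 is a steroid. Against PPT, 148 genes were called higher (0.957%) and 64 lower (0.414%) with DPN, and at an adjusted p under 0.05 alone 19.1% were higher and 18.8% lower. Against E2, 506 were called higher (3.27%) and 1148 lower (7.43%), or 31.3% and 32.6% at an adjusted p under 0.05 alone. With library size alone as scaling, the E2 comparison gave 697 higher and 885 lower, so its split depends on scaling. The pairs of compounds share the DPN libraries.

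Cell cycle genes were lower with DPN than with either other compound in many cases, by less than their fall from control. The median difference of the 80 mitotic genes was -2.24 against control, -0.39 against PPT and -0.46 against E2. Of the 80 mitotic genes, 47 were lower with DPN and 5 higher when set against PPT, and 52 and 2 against E2. PLK1 stood at 10.1 and 10.8 CPM with DPN, and 25.1 and 29.8 with PPT. The difference from PPT was -1.39 (95% interval -1.61 to -1.18, adjusted p = 6.66e-11) and that from E2 -0.98 (-1.20 to -0.75). AURKA, a kinase of centrosomes, had 42.6 and 45.4 CPM with DPN, 44.3 and 53.1 with PPT and 40.6 and 43.5 with E2, and did not pass in either comparison (intervals -0.32 to 0.03 and -0.11 to 0.24).

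NRF2 and chaperone genes separated DPN from E2 more than from PPT. TXNRD1 was at 1034 and 1027 CPM with DPN, 1056 and 1008 with PPT and 102 and 106 with E2, with a difference of 0.00 from PPT (interval -0.13 to 0.12) and 3.31 from E2. Of the 42 NRF2 genes, 24 had lower and 5 had higher values with DPN when set against PPT, and 2 and 32 against E2. AKR1B10 was lower than with PPT by 0.61, at 381 and 395 against 607 and 579 CPM. Of the 34 unfolded protein response genes, 13 were lower and 4 higher with DPN than with PPT, and 3 lower and 30 higher than with E2. Among the 12 chaperones of that list, 8 were lower than with PPT and 12 higher than with E2 (median differences -0.35 and 1.07). Among ATF4 genes, 27 of 37 were lower and 1 was higher than with PPT, and 9 were lower and 25 higher than with E2.

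Of 51 adhesion and actin genes, 29 had higher values in DPN than in PPT libraries and 5 had lower ones. HBEGF stood at 34.6 and 36.5 CPM with DPN, 14.9 and 19.0 with PPT and 17.2 and 18.8 with E2. SOCS3 stood at 6.82 and 5.98 with DPN, 1.17 and 2.68 with PPT and 4.96 and 5.60 with E2, higher than with PPT by 1.72 (interval 1.13 to 2.30) and not passing against E2 (interval -0.26 to 0.81). IGFBP3 was higher with DPN than with PPT by 2.00 and far lower than with E2, at 17.9 and 16.7 against 217 and 222 CPM. Of 34 HIF-1 genes, 24 were higher with DPN than with PPT and 25 lower than with E2.

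**Figure D4:**
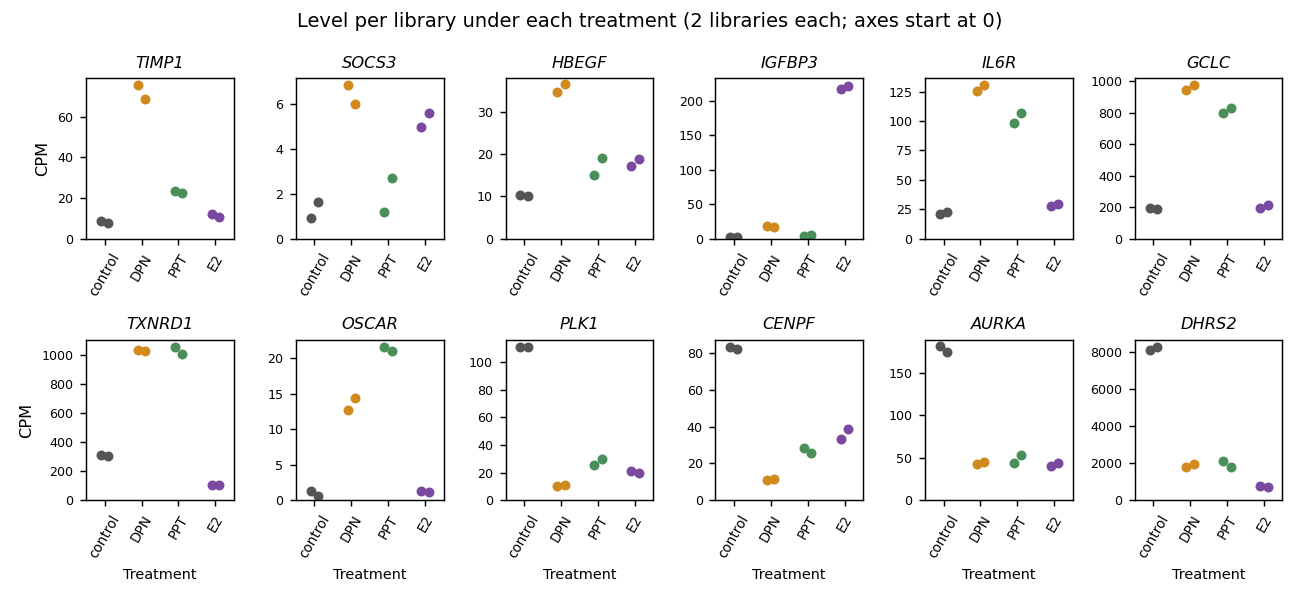
CPM per library (vertical axes from 0) of 12 genes in control, DPN, PPT and E2 libraries, 2 each. TIMP1 and HBEGF are highest with DPN, TXNRD1 in DPN and PPT libraries stands at 1034 and 1027 against 1056 and 1008, and IGFBP3 is highest with E2.

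Genes set apart with DPN from the control, PPT and E2 together were few. By the largest of the 3 p-values, with every difference past 1.5 and of one sign, 12 genes were higher (0.0776% of the tested genes) and 15 lower (0.097%). TIMP1 was the 1 with a mean of at least 5 CPM, at 23.4 and 22.7 CPM with PPT and 12.2 and 10.7 with E2, beside its 75.4 and 68.5 with DPN (smallest difference 1.64, adjusted p = 1.47e-11). Chosen after the values were seen, OLAH, a thioesterase of fatty acid synthesis, had 8.59 and 8.21 CPM with DPN and 0.492 to 0.800 in the 6 other libraries. NNMT, a methyltransferase of nicotinamide, had 3.36 and 3.26 with DPN and at most 0.569 elsewhere. Of the 15 lower, 12 are copies of the small noncoding RNA SNAR-A with identical counts within each of 2 sets, for example 100 and 20 counts in the control libraries and 0 and 0 with DPN, so that reads cannot be assigned to a copy and the control libraries differ widely. With genes of identical counts taken once, 5 remained. The other 3 were ERN2, NECTIN4 and NOTCH1. The count of higher genes was 7 without DPN replicate 1 and 7 without DPN replicate 2.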

How the data were processed

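Poly(A) RNA was read, per the paper's methods and the labels, from strand-specific libraries, in single reads of 50 bp. The authors aligned reads to GRCh38.p10 and deposited raw read counts per gene for each library; the aligner, the counter and the use of strand are not given in the sources used here, so overlapping and antisense genes cannot be told apart. The paper's methods give n = 3 per treatment, and 2 libraries per group were analysed here. Counts were used as deposited. RefSeq symbols matched 99.4% of GeneIDs.

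Genes passing filterByExpr (minimum count 10, minimum total 15) were fitted over all 8 libraries in edgeR 4.0.16 (R 4.3.3) with TMM scaling, and each contrast had a quasi-likelihood test, with p-values adjusted by Benjamini-Hochberg over all tested genes. The 2 replicates per group leave few degrees of freedom, which the 8-library fit shares, and the biological coefficient of variation was 6.8%. Levels are CPM after TMM, which do not correct for gene length, so they compare libraries and not genes. Intervals are 95%. A count of 0 allows up to 3 counts, for counting error only.

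The comparisons, the 38 gene lists and the named genes were chosen with earlier results of these data known. Named genes are the receptors and genes the paper discusses, the 15 largest called rises and falls (mean CPM of at least 5, groups not overlapping), the 8 called genes of highest CPM per direction, up to 6 members of smallest p per list, and genes apart from all other treatments; other members, named for a known role, were chosen after their values were seen. Promoters are RefSeq windows on GRCh38.p14; fewer than 80% of called genes had one, so no share is given for them, and shares over all windows describe those windows alone. The labels do not say that replicate numbers pair samples. Deviations of same-numbered libraries correlated at -0.064 to 0.023, which shows no shared deviation but cannot settle how samples were paired. Replicates of a group differed by more than sampling noise. Alternatives were DESeq2 1.42.0, fits on the groups compared, other scalings and filters, a replicate block and leaving out each library. The edgeR fit and the test for genes apart from all other treatments were tried on simulated counts, in which far fewer genes changed than here. DESeq2 and the counts over gene lists were not tried in this way. Some genes are not reported here.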

Additional observations from a re-analysis of the deposited data

How the results depend on the processing

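Counts of called genes for DPN against control ran from 248 to 299 higher and from 289 to 324 lower when each library was left out in turn, where a lone library is assumed to vary like the other groups. Genes changed at an adjusted p under 0.05 ran from 2926 to 3960 higher and 2989 to 3858 lower. The DPN against PPT count of lower genes was 39 with DESeq2 on the groups compared, against 64. Genes apart from all other treatments numbered 7 to 12 higher and 11 to 15 lower without one library, and 5 lower with identical counts taken once, an alternative chosen after seeing the data. The cause of these moves was not tested, except that identical copies are counted once by construction. With the replicate number as a block, 290 genes were called higher and 308 lower, 3690 rose and 3657 fell. In that fit 141 and 58 differed from PPT, 501 and 1118 from E2, and 13 and 14 stood apart from all. The labels give same-numbered libraries nothing in common but the number. No tested call changed direction, while the median over all genes, near 0, changed sign with RLE scaling (0.005). Of the named genes' values under alternatives, 4067 stayed on their side of the threshold, 11 no longer passed without 1 library, among them MSH6, MLH3 and IGF1R, and 2 newly passed (ACTB). Of counts over gene lists, 1214 stayed within 1.5 times of the reported count and 78 did not, and of list medians 506 kept within the allowed spread and 140 moved. Scaling moved the median log2 fold change of all genes from -0.005 to between -0.036 and 0.005. In windows of 200 bases before the start, TTTGAA was in 40.0% of mitotic windows against 7.13% of all, CCAAT in 29.3% of all, CCACG in 35.9% of all and 49.3% of replication windows, and TGACNNNGC in 9.98% of all. Depth limits genes of few counts, whose fitted fold changes depend on the prior count.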
